A study of Mus musculus with 15 samples.

Results

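The 31 genes described here encode the structural parts of the cardiac sarcomere and its Z-disc, and were compared in hearts of mice heterozygous for Lmna H222P and of control mice. They were listed by name, not chosen by a threshold on their values. They were measured through every probe set that the platform annotation assigns to a single gene symbol, which gave 78 probe sets for all 31 genes out of 45101 probe sets on the array. Of these, 77 exceeded the signal filter and were tested, among 38870 tested probe sets in all. For each gene the brightest probe set over all arrays stands for the gene, and its other probe sets are given beside it.

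Total RNA of whole hearts was hybridised to 1-colour arrays, 1 array per male mouse, 8 control and 7 Lmna H222P heterozygous. All mice were 10 weeks old by the labels. Lmna encodes the lamins A and C, which line the inside of the nuclear envelope, and H222P is a substitution in them. The labels give no strain, litter or array batch and say nothing of the controls beyond that name, so the p-values reflect how far these 15 samples scatter, whatever its source.

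The sarcomere is the contractile unit of heart muscle. Thin filaments of actin, tropomyosin and troponin are anchored in the Z-disc by alpha-actinin, thick filaments of myosin are held at the M-band, and titin spans from the Z-disc to the M-band. Desmin filaments and small heat shock proteins tie neighbouring Z-discs together and protect them under load, and dedicated chaperones fold the myosin heads. Mutations in many of these genes cause inherited cardiomyopathy.

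The labelled tissue was checked against marker genes. The cardiac myosin heavy chain Myh6 had 19766 to 60904 signal units in control hearts and 15214 to 45577 in heterozygous hearts. The fast skeletal myosin Myh4 had 5.3 to 118.1 units in control and 5.0 to 74.7 in heterozygous hearts in its brightest probe set. Not every gene of the 16 skeletal muscle markers was weak. Acta1 had 4234 to 17595 units in control and 2454 to 10108 in heterozygous hearts. Eno3 had 12200 to 25830 and 10167 to 19351 units. The mean log2 signal of the list was 5.89 to 7.31 in control and 5.71 to 7.24 in heterozygous hearts. Array medians lay between 56.7 and 94.2 units. Over all tested probe sets the median difference, heterozygous minus control, was -0.11 on the log2 scale, and 98 probe sets passed the threshold, 35 higher and 63 lower. With each array centred on its median the split was 51 higher and 14 lower, and with quantile normalization 37 higher and 28 lower. Bulk RNA cannot tell fewer cells of a type from less RNA per cell.

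Sequence at the start of 4 genes is shown because the results below turn on them: Smyd1, the member with the smallest p, Tnnc1 and Myl3, whose signals followed an array pattern described below, and Pdlim3, the gene of the list of other sarcomere genes whose brightest probe set passed. The windows cover 250 bases before and 50 after the RefSeq start, in build GRCm38.p6. Capitals mark, on either strand, the M-CAT motif CATTCC bound by TEAD factors, the TATA box TATAAA, and the MEF2 site and the SRF-binding CArG box known from muscle promoters.
Smyd1, chr6:71262232-71262531, minus strand: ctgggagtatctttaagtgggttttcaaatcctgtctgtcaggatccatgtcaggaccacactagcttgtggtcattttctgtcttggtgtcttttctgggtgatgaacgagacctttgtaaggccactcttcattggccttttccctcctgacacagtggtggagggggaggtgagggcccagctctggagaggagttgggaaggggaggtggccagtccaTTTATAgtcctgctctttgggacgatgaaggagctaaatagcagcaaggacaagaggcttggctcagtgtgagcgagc
Tnnc1, chr14:31208062-31208361, plus strand: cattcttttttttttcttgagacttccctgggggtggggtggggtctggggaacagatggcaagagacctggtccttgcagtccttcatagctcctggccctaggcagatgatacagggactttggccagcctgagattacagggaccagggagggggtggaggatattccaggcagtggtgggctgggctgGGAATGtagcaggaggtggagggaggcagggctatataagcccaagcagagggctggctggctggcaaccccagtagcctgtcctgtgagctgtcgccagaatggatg
Myl3, chr9:110763428-110763727, plus strand: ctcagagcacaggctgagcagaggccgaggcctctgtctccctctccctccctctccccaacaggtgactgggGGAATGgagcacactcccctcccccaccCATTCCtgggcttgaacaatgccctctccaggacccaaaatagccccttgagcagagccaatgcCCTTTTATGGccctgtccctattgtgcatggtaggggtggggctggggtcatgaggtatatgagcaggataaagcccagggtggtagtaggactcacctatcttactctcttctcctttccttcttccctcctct
Pdlim3, chr8:45885237-45885536, plus strand: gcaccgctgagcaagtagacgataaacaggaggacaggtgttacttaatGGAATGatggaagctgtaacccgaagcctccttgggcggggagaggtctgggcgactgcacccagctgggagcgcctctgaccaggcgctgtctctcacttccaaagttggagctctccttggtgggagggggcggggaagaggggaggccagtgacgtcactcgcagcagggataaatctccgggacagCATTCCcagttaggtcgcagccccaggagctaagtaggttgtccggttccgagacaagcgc
Of the 31 members 26 had a window in the RefSeq table, with 35 windows in all. A CArG box stood in 5 of the 35 windows (14.3%), against 1.63% of 32851 windows of all genes. An MEF2 site stood in 5 (14.3%), against 3.19%. The M-CAT motif stood in 12 (34.3%), against 14.7%, and the TATA box in 4 (11.4%), against 13.6%. The GATA motif AGATAA, not marked in capitals, stood in 5 (14.3%), against 11.2%. Both strands were searched, and several windows belong to 1 gene. Overlapping windows of Ldb3 hold the same CArG box, and those of Flnc the same M-CAT match, so these sites were counted in each window. By gene, the CArG box stood in 4 of 26, the MEF2 site in 4 and the M-CAT motif in 11. A match is a string of letters, not a measured site. In the windows above, Smyd1 has a TATA box on the reverse strand that begins 28 bases before the start, Tnnc1 an M-CAT match 58 bases before it, and Myl3 a CArG box 85 bases before it. No array value bears on these sites.

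No gene of the contractile apparatus described here passed the test of a difference between heterozygous and control hearts. With limma and Benjamini-Hochberg adjustment over all probe sets, 0 of 31 genes passed the threshold of 0.05, where 0.289% of all 16627 tested genes did. In all genes 0.102% passed as higher and 0.186% as lower. The smallest adjusted p of a member was 0.271. At an unadjusted p under 0.05 there was 1 gene of 31, Smyd1, which was lower, while 15.2% of all genes had such a p, 10.4% lower and 4.8% higher. That share of members is below the background. The groups overlapped in all 31 genes, and 0.589% of all genes had groups that did not. The median difference of the members was -0.0027 on the log2 scale, against -0.08 over all tested genes, and 16 of 31 differences were below 0 (58.5% of all genes). After centring each array on its median the members' median difference was 0.20 and 5 of 31 were below 0, while that of all probe sets moved to 0.10.

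A missed threshold does not show that levels were equal, so the intervals are given. The 95% interval of the difference lay within 2-fold either way for 29 of 31 members (93.5%), against 58.1% of all genes, and within 1.5-fold for 20 of 31, against 32.0%. The 2 members outside 2-fold were Myot and Myoz1. The median SD around the group means was 0.39 (log2) over the 77 tested probe sets of the members and 0.65 over all tested probe sets. These shares and SDs were not matched for signal. Of the 31 members 18 had a mean log2 signal above 12, while the filter for testing was at 4. Of 12 ventricular and general cardiomyocyte marker genes that are not members, 12 also had intervals within 2-fold.

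**Figure D1:**
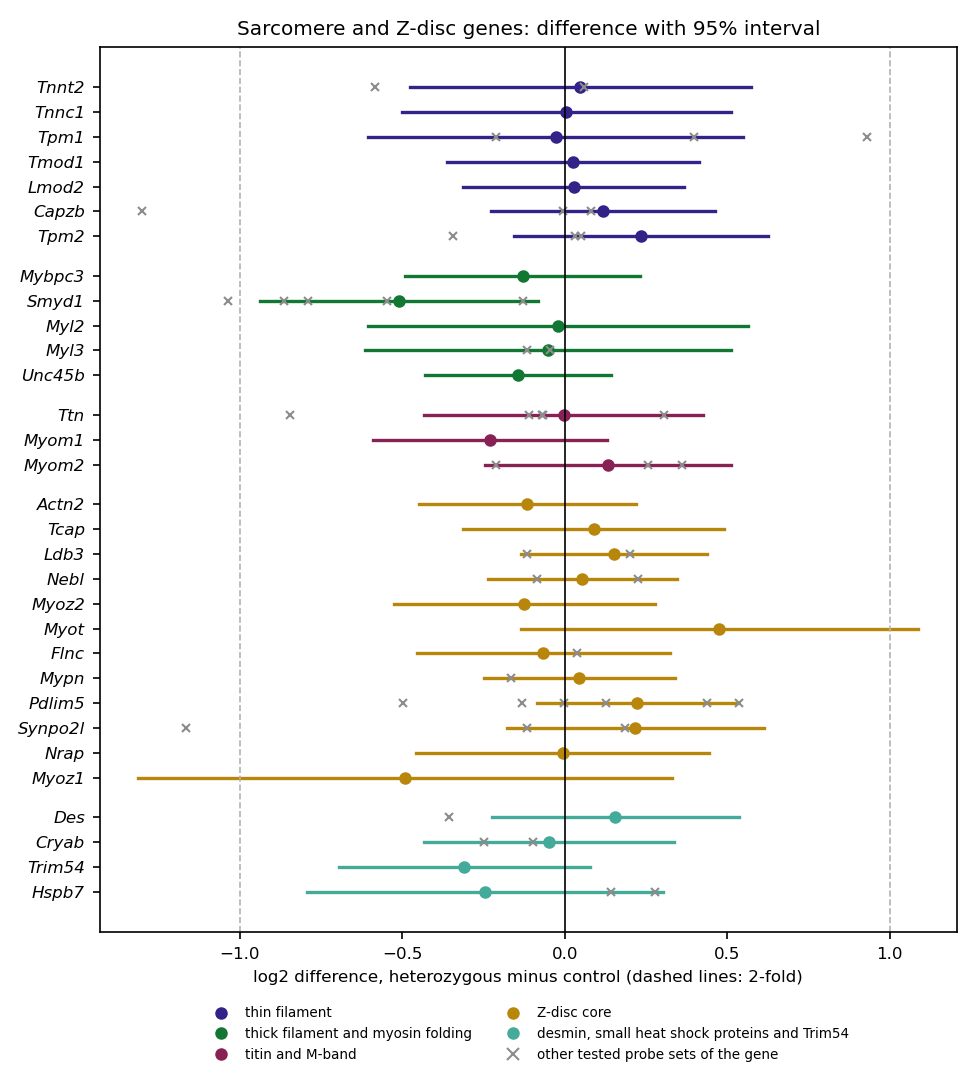
Difference in log2 signal (heterozygous minus control) for the 31 genes, grouped by role, with 95% intervals from limma (coloured bars) and the differences of the other tested probe sets of each gene (grey crosses); dashed lines mark 2-fold. The intervals of Myot and Myoz1 cross a dashed line, and that of Smyd1, which is not adjusted for the number of tests, is the one that does not reach 0.

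Among the 7 thin filament genes, differences ran from -0.03 to 0.23 (log2) and 6 of 7 were above 0. Tmod1 and Lmod2 fell below 0 with quantile normalization, and Tnnt2, Tnnc1 and Tmod1 with the replicate block. Centred on bright probe sets, Tnnt2, Tnnc1, Tmod1 and Lmod2 were below 0. Tpm1, which was below 0, was above 0 with median centring. Tnnt2, the tropomyosin-binding subunit of cardiac troponin, had 20005 to 58498 units in control hearts (median 28036) and 15566 to 43980 in heterozygous hearts (median 33468). The ranges overlap, with 1 heterozygous heart below all controls. The log2 means were 14.83 ± 0.47 (SD, n = 8) and 14.88 ± 0.48 (SD, n = 7), a ratio of 1.03 with a 95% interval of 0.719 to 1.49. A weaker probe set of Tnnt2 lay at -0.58 without passing (adjusted p = 0.665 by limma).

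Tpm1, the main cardiac tropomyosin, had 17230 to 59744 units in control hearts (median 24742) and 12937 to 33893 in heterozygous hearts (median 32012). The ratio was 0.981 (95% interval 0.657 to 1.46). Its 3 other probe sets lay at -0.21, 0.40 and 0.93, and the weakest of them had the smallest p of the gene (adjusted p = 0.237). The weakest set had 67.3 to 211.1 units in control and 132.5 to 546.2 in heterozygous hearts. The probe sets of Tpm1 thus had differences of both signs. Tnnc1, the calcium-binding troponin subunit, had 18306 to 51350 units in control hearts (median 22881) and 13829 to 34337 in heterozygous hearts (median 27300), a ratio of 1.00 (95% interval 0.707 to 1.43) in its single probe set.

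Of the remaining thin filament genes, Tmod1 caps the pointed end of the filament and had 2552 to 4211 units in control and 2711 to 5095 in heterozygous hearts, a ratio of 1.02. Lmod2, a nucleator that lengthens it, had 5980 to 11563 and 6377 to 10333 units, a ratio of 1.02. Neither gene separated the groups. Capzb, a subunit of the barbed-end capping protein at the Z-disc, had a ratio of 1.09, with its other probe sets at -1.30, 0.08 and -0.00 on the log2 scale. The probe set at -1.30 was weak, with geometric means of 23.1 units in control and 9.37 in heterozygous hearts, and had an adjusted p of 0.246 by limma (unadjusted 0.0165). Tpm2, a tropomyosin of slow skeletal and smooth muscle, had 588.3 to 1036 units in control and 719.8 to 1336 in heterozygous hearts, a ratio of 1.18 (95% interval 0.897 to 1.54).

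The 5 genes of the thick filament and of myosin folding all had differences below 0, from -0.51 to -0.02, but 4 of them (Mybpc3, Myl2, Myl3 and Unc45b) were above 0 after centring on the array median. Mybpc3, the cardiac myosin-binding protein C, had 12297 to 27125 units in control hearts (median 15799) and 11309 to 18134 in heterozygous hearts (median 15739). The medians lie close together. The ratio was 0.914 (95% interval 0.712 to 1.18; adjusted p = 0.764 by limma).

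Myl2, the ventricular regulatory light chain, had 21172 to 71998 units in control hearts (median 30665) and 15445 to 45503 in heterozygous hearts (median 33649). Its ratio was 0.986 (95% interval 0.657 to 1.48). Myl3, the ventricular essential light chain, had a ratio of 0.965 (95% interval 0.653 to 1.43), with its other probe sets at -0.05 and -0.12 on the log2 scale. Unc45b, the chaperone that folds muscle myosin, stood at a ratio of 0.905 (95% interval 0.742 to 1.10).

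Smyd1, a muscle methyltransferase that works with Unc45b and Hsp90 in assembling thick filaments, was the member with the smallest p. Its brightest probe set had 2273 to 3891 units in control hearts (median 3275) and 1398 to 3160 in heterozygous hearts (median 2384). All 7 heterozygous hearts lay below the control median and 3 lay below every control heart. The log2 means were 11.63 ± 0.28 (SD, n = 8) and 11.12 ± 0.45 (SD, n = 7), a ratio of 0.702 with a 95% interval of 0.522 to 0.944. Limma gave an adjusted p of 0.271. The difference of -0.51 (log2) was -0.30 after centring each array on its median, with a 95% interval of -0.83 to 0.22. The interval also reached 0 with the replicate block (upper bound 0.028) and without heterozygous heart 5 (upper bound 0.0058).

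The other probe sets of Smyd1 gave the same sign. All 6 tested probe sets were below 0 and 4 of them had an unadjusted p under 0.05. They measure the same RNA of the same mice and are no independent repeats. The one with the smallest p, the fourth brightest, had 235.1 to 606.7 units in control hearts (median 348.3) and 88.9 to 255.3 in heterozygous hearts (median 177.2), with 5 of 7 heterozygous hearts below every control. Its difference was -1.04 (95% interval -1.58 to -0.50) with limma's adjusted p = 0.107. The suffix of this probe set marks probes that can also bind other transcripts. The same suffix is on the probe sets that stand for Myom2 and Flnc. It is also on the Pdlim5 set at 0.54 and the brightest Capn3 set, both described below. The brightest Smyd1 set and those that stand for Myl3 and Synpo2l carry another suffix, for which binding of other transcripts was not examined. The weakest probe set, with geometric means of 18.3 and 16.7 units, differed by -0.13. Its sign was not stable, as it ran from -0.34 to 0.17 over the 23 other settings that tested it. Under 25 other settings the fourth brightest had adjusted p-values between 0.0264 and 0.227 by limma and passed in 2, with signals floored at a log2 of 6 and with a trended prior, while the brightest had 0.154 to 0.567 and passed in 0.

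**Figure D2:**
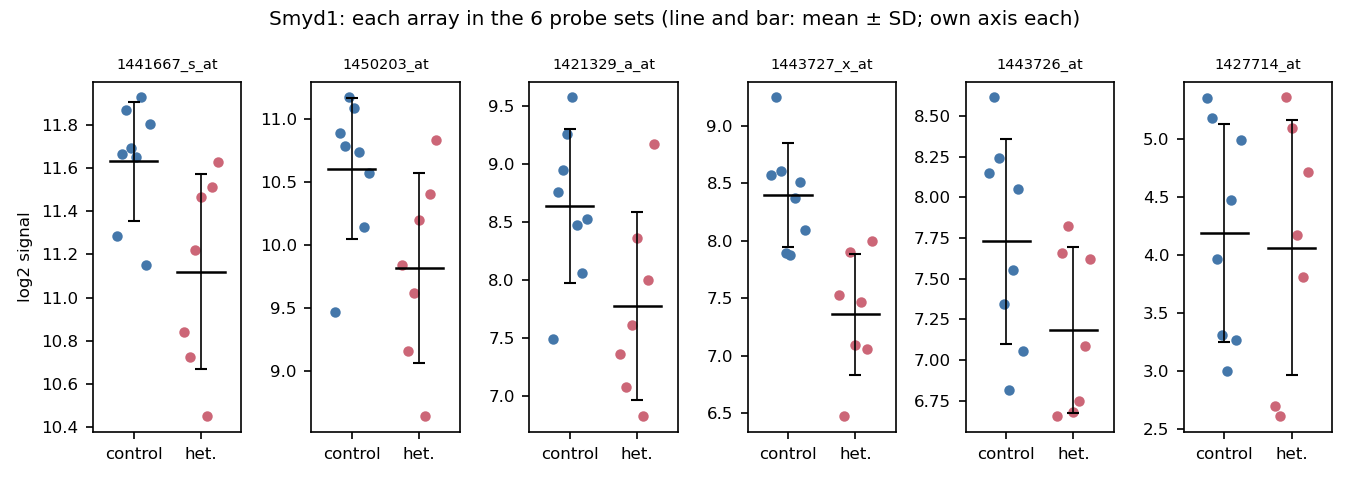
log2 signal of each array in the 6 Smyd1 probe sets, control (blue) and heterozygous (red), with mean and SD; each panel has its own axis. Heterozygous means lie below control means in all 6 panels, and the arrays overlap in each panel, least in the fourth, where 5 of 7 heterozygous arrays lie below every control.

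Other measures moved with the groups beside Smyd1. The atrial marker list, of which 3 of 12 genes passed, had mean log2 signals of 7.50 to 8.72 in control and 8.59 to 9.82 in heterozygous hearts. Control heart 6 had the highest atrial level among the controls, at 8.72, and its Smyd1 signal of 3891 was the highest of all hearts. Heterozygous heart 5, with the lowest Smyd1, had an atrial level of 9.73, and heterozygous heart 4, with the highest atrial level of 9.82, had 2826 units of Smyd1. These ranks hold for the mean log2 signal. By the summed signal of the same list, heterozygous heart 5 was highest, at 43325 units, and heterozygous heart 4 had 28456. Among the controls heart 4 then stood highest, at 14894 units, and heart 6 had 13130. The heterozygous hearts with the lowest Smyd1 were 5, 2 and 1, at 1398, 1694 and 1835 units. The ratio of 3' to 5' Actb signal, a sign of RNA integrity, was 2.67, 3.23 and 1.34 in these, against 1.23 to 2.34 in control hearts. It was 2.49 in heterozygous heart 3, whose Smyd1 signal was 2384, the median of its group, and 1.63, 1.26 and 1.43 in heterozygous hearts 4, 6 and 7, with 2826, 2918 and 3160 units of Smyd1. The control heart with the ratio of 2.34 was heart 6, which had the highest Smyd1 signal of all hearts, at 3891 units. The part of atrial RNA and of RNA integrity in the Smyd1 values was not tested.

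Titin and the M-band genes did not pass either. Ttn, the giant elastic filament, had 14875 to 33733 units in control hearts (median 17781) and 11777 to 23873 in heterozygous hearts (median 19855), a ratio of 0.998 (95% interval 0.741 to 1.34). Of its 6 probe sets, 5 were below 0 and 1 above. They ran from -0.84 in the weakest to 0.31, and the set at 0.31 had an unadjusted p of 0.0265 and an adjusted p of 0.282 by limma. Myom1, the myosin-titin crosslinker of the M-band, had 6770 to 12163 units in control hearts (median 9137) and 5392 to 9951 in heterozygous hearts (median 6990), a ratio of 0.852 (95% interval 0.664 to 1.09). Of the 7 heterozygous hearts 5 lay below the control median. Of these 5, 2 lay below every control. Myom2, a second M-band myomesin, had 12128 to 17044 units in control and 9763 to 23435 in heterozygous hearts, a ratio of 1.10 (95% interval 0.844 to 1.43), and its other 3 probe sets lay between -0.21 and 0.36.

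The 12 Z-disc genes split 5 below and 7 above 0, with differences from -0.49 to 0.48. Actn2, the alpha-actinin that crosslinks thin filaments, had 8892 to 18277 units in control hearts (median 10891) and 8922 to 12362 in heterozygous hearts (median 10951), a ratio of 0.924 (95% interval 0.732 to 1.17). Ldb3, a PDZ-LIM partner of alpha-actinin, had 7165 to 11365 units in control hearts (median 8766) and 8577 to 12070 in heterozygous hearts (median 9761), a ratio of 1.11 (95% interval 0.911 to 1.36). Myoz2, the calcineurin-binding calsarcin of heart, had 14973 to 28558 units in control hearts (median 17481) and 11079 to 23040 in heterozygous hearts (median 18157), a ratio of 0.917 (95% interval 0.694 to 1.21). In each of these genes the heterozygous and control ranges overlap.

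Tcap, which caps the titin end, had 11848 to 21498 units in control and 10696 to 24095 in heterozygous hearts, a ratio of 1.06. Nebl, the cardiac nebulin relative, spanned 3771 to 4276 units in control and 3014 to 5765 in heterozygous hearts, a ratio of 1.04. Its log2 SD was 0.07 in control and 0.29 in heterozygous hearts. Flnc, the muscle filamin, had a ratio of 0.955, Mypn, a titin-associated scaffold, 1.03, and Nrap, a myofibril assembly protein, 0.996. Synpo2l had 1.16 (95% interval 0.883 to 1.53), with its weakest probe set, geometric means 64.5 and 28.8 units, at -1.17 on the log2 scale. Pdlim5, a PDZ-LIM protein of the Z-disc, had 7 tested probe sets, the most of any member, between -0.50 and 0.54, and its brightest had 7418 to 10270 units in control and 7515 to 13804 in heterozygous hearts, a ratio of 1.17 (95% interval 0.942 to 1.44). The probe set at 0.54 had 55.8 to 88.4 and 59.6 to 134.2 units, with 5 of 7 heterozygous hearts above every control and an adjusted p of 0.202 by limma (unadjusted 0.00812).

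Myot, the actin-bundling myotilin, and Myoz1, the calsarcin of fast muscle, had the widest intervals. Myot had 687.3 to 1555 units in control hearts (median 1042) and 948.2 to 2897 in heterozygous hearts (median 1110). Heterozygous hearts 1 and 2, at 2534 and 2897 units, lay above all others, while the remaining 5 stayed at 948.2 to 1421. The ratio was 1.39 (95% interval 0.911 to 2.12; adjusted p = 0.464 by limma). The same 2 hearts had the highest Myh7, the slow myosin heavy chain, at 8570 and 6205 units, where the other heterozygous hearts had 559.5 to 1674 and controls 412.0 to 587.6. Myoz1 was weak, with 64.3 to 345.4 units in control and 47.0 to 160.2 in heterozygous hearts, and its ratio was 0.711 (95% interval 0.403 to 1.26).

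Des, the muscle intermediate filament, did not pass, nor did Cryab, Hspb7 and Trim54, which were grouped with it. Des had 4969 to 11341 units in control hearts (median 7735) and 7289 to 10703 in heterozygous hearts (median 8023), a ratio of 1.11 (95% interval 0.857 to 1.45). Cryab, a small heat shock protein that binds desmin and titin, had 13295 to 25623 units in control hearts (median 16442) and 11876 to 20795 in heterozygous hearts (median 16820), a ratio of 0.967 (95% interval 0.741 to 1.26). Hspb7, a cardiac small heat shock protein, had 10540 to 19747 units in control and 4590 to 16417 in heterozygous hearts, a ratio of 0.843 (95% interval 0.577 to 1.23). Heterozygous heart 5 was the lowest, and without it the log2 difference was -0.021 in place of -0.25. The other probe sets of Hspb7 lay at 0.14 and 0.28 on the log2 scale. Trim54, a ubiquitin ligase of striated muscle, had 2718 to 4632 units in control and 1691 to 3544 in heterozygous hearts, a ratio of 0.807 (95% interval 0.618 to 1.05), with 4 of 7 heterozygous hearts below every control.

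Every probe set of the members was also counted. None of the 77 tested probe sets passed with limma, where 0.252% of all tested probe sets did (0.09% higher and 0.162% lower). An unadjusted p under 0.05 was found in 8 of 77 (10.4%), where 14.6% of all had one. Of these 8, 5 were lower in heterozygous hearts, against 10.1% of all probe sets, and 3 were higher, against 4.44%. Of the 5, 4 belonged to Smyd1 and 1 to Capzb, and the 3 higher ones to Tpm1, Ttn and Pdlim5. Differences below 0 were seen in 44 of 77, against 60.1% of all. The 95% interval stayed within 2-fold in 60 of 77, against 46.2%, and within 1.5-fold in 38, against 21.6%, again not matched for signal. The groups overlapped in all 77, against 0.468% of all probe sets where they did not.

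The signals of the brightest members varied together from array to array. In 18 members with a mean log2 signal above 12, control heart 5 stood 0.63 above and heterozygous heart 6 0.52 below the mean of all arrays (median over the 18 genes). Of the 31 members 18 had their highest signal in control heart 5 and 11 their lowest in heterozygous heart 6. The 13 dimmer members stood at 0.25 and 0.21 in these hearts. Other bright probe sets that are on no gene list, 731 in number, stood at 0.23 and -0.26. The spread of Myl2, an SD of 0.54 around its group means, was 0.41 after each array was centred on those 731 probe sets, and that of Myoz2 went from 0.34 to 0.19. The SD was smaller after this centring in 15 of the 18 bright members and larger in 3, Myom1 (0.29 to 0.30), Ldb3 (0.20 to 0.22) and Hspb7 (0.498 to 0.501). Among the 13 other members it was smaller in 4 and larger in 9, Smyd1 among them (0.37 to 0.48).

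**Figure D3:**
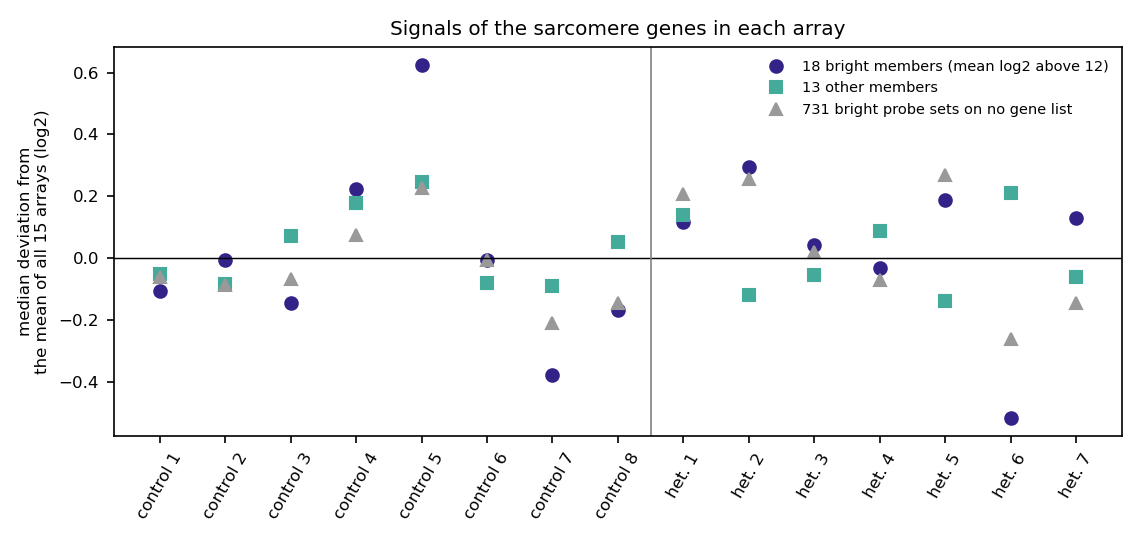
Median deviation of log2 signal from the mean of all 15 arrays, per array, for the 18 bright members, the 13 other members and 731 bright probe sets on no gene list. Control heart 5 (0.63) and heterozygous heart 6 (-0.52) stand furthest out for the bright members, and the other bright probe sets deviate in the same direction there (0.23 and -0.26).

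Other sarcomere genes were described for comparison from a list of 60 genes, of which 57 were tested. Of the 57, 1 passed with limma and was higher, Pdlim3, where 0.289% of all genes passed. At an unadjusted p under 0.05 there were 15 genes (26.3%), 7 lower and 8 higher, where 15.2% of all genes had such a p, 10.4% lower and 4.8% higher. The median difference of this list was -0.03. In the brightest probe set of each gene, the groups did not overlap in 3 of them, Pdlim3, Mylk3 and Fhl1, where 0.589% of all genes had such groups. The atrial myosin light chains Myl7 and Myl4, relatives of Myl2 and Myl3, were listed with the atrial markers and are given there.

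Pdlim3 encodes a PDZ-LIM protein that binds alpha-actinin at the Z-disc, as Pdlim5 and Ldb3 do. It had 140.0 to 287.2 units in control hearts (median 253.2) and 477.6 to 1201 in heterozygous hearts (median 684.1). The groups did not overlap. Log2 means were 7.85 ± 0.34 (SD, n = 8) and 9.51 ± 0.43 (SD, n = 7), a rise of 3.16-fold (95% interval 2.32 to 4.30) with limma's adjusted p = 0.00553. It passed in 24 of 25 other settings and did not with the replicate number as a block, where the adjusted p was 0.134. The intervals of the brightest probe sets of Pdlim5 and Ldb3 stayed below 1.5-fold, but those of weaker Pdlim5 probe sets reached 2.02-fold, and the difference between these genes and Pdlim3 was not tested.

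Among the other genes with small p on that list, Mylk3, the cardiac myosin light chain kinase, had 4307 to 7274 units in control hearts and 2858 to 4236 in heterozygous hearts. Its groups did not overlap, but it did not pass (ratio 0.694, adjusted p = 0.154 by limma). Fhl1, a LIM protein of stretch-sensing complexes, had a ratio of 1.67 (adjusted p = 0.0780), Capn3, a titin-binding protease, 0.640 (adjusted p = 0.130), and Myh7 3.61 (adjusted p = 0.138). A weaker probe set of Fhl1 went the other way, at -0.55 on the log2 scale (adjusted p = 0.322, unadjusted 0.041). The weaker probe set of Capn3 also had the other sign, at 0.19. In the weakest of 3 probe sets of Cfl2, a muscle cofilin, the signal fell by 0.92 on the log2 scale with an adjusted p of 0.0387, while the brighter ones lay at -0.10 and 0.35. The p-values here are limma's.

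**Figure D4:**
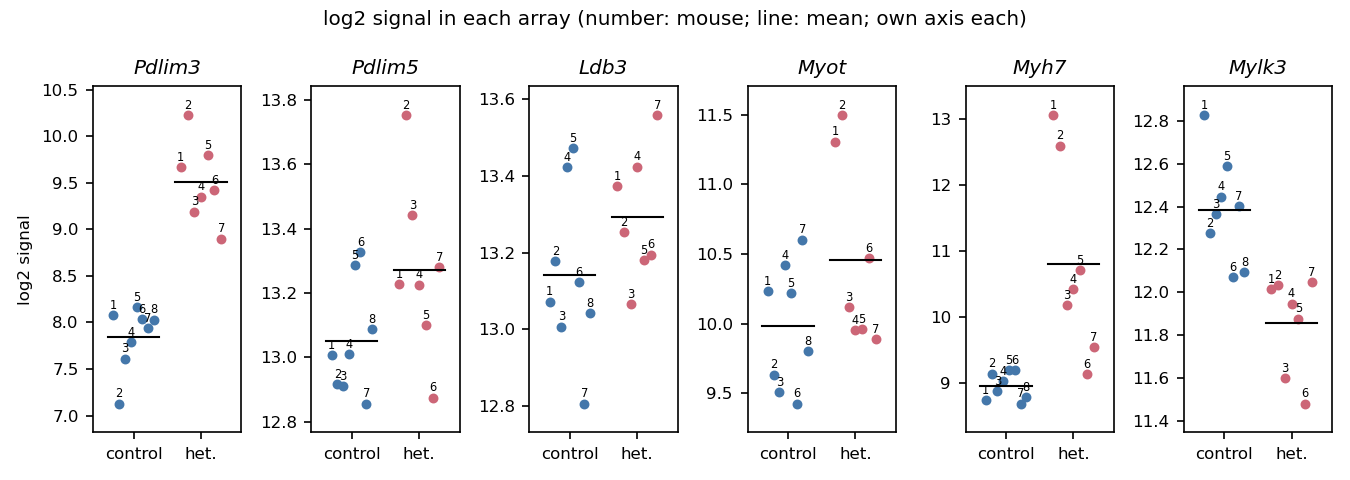
log2 signal of each array in Pdlim3, Pdlim5, Ldb3, Myot, Myh7 and Mylk3, with the mouse number at each point and the group mean as a line; each panel has its own axis. Pdlim3 and Mylk3 show no overlap between groups, Pdlim5 and Ldb3 overlap, and heterozygous mice 1 and 2 stand highest in Myot and Myh7.

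Markers of other cells are given beside these values. Of 12 atrial genes 9 had differences above 0, while Bmp10 (-0.81), Kcnk3 (-0.34) and Kcnj3 (-0.10) lay below 0. Over all 21 tested probe sets of these genes, 11 were below 0, against 60.1% of all probe sets. With limma 3 of the 12 genes passed, where 0.289% of all genes passed. Among these were the atrial myosin light chains Myl7, higher by 4.69 on the log2 scale (adjusted p = 0.0255), and Myl4, higher by 2.83 (adjusted p = 0.0298). The third was Sln, the sarcolipin that inhibits the calcium pump, higher by 6.37 (adjusted p = 0.0122 by limma). Sln was weak in control hearts, at 2.8 to 406.7 units (median 6.0), against 241.0 to 5110 in heterozygous hearts, and the ranges overlap. A weaker probe set lay at -0.94 for Sln and at -0.07 for Myl4. All 6 erythroid and blood genes had differences below 0, 4 of them at an unadjusted p under 0.05 and 2 past the threshold, and the groups did not overlap in 3. Their mean log2 signals were 8.04 to 8.85 in control and 7.28 to 7.80 in heterozygous hearts. None of 10 fibroblast, 10 smooth muscle, 8 endothelial, 8 macrophage or 16 skeletal muscle genes passed with limma. At an unadjusted p under 0.05 there were 4 of 10 fibroblast genes (4 higher) and 6 of 10 smooth muscle genes (5 higher, 1 lower). There were also 2 of 8 endothelial (2 higher), 1 of 8 macrophage (1 higher) and 4 of 16 skeletal muscle genes (1 higher, 3 lower). Of all genes 15.2% had such a p, 10.4% lower and 4.8% higher. All 10 fibroblast genes had differences above 0 in their brightest probe sets, while 5 of their 18 tested probe sets were below 0. The groups did not overlap in 1 of the 10, Dcn, where 0.589% of all genes had such groups. The fibroblast list had mean log2 signals of 10.07 to 10.33 in control and 9.75 to 10.99 in heterozygous hearts, and smooth muscle 8.64 to 9.30 and 9.15 to 9.52. Of 12 ventricular and general cardiomyocyte genes that are not members, 0 passed with limma and 1 had an unadjusted p under 0.05, and their mean log2 signal was 13.88 to 15.02 in control and 13.55 to 14.49 in heterozygous hearts. The part of these markers in the values of Smyd1 and Pdlim3 was not tested.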

How the data were processed

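Whole-heart RNA was measured on 1-colour Affymetrix arrays. The deposited values are linear intensities, 1 per probe set and array, credited to GCRMA in the submitters' processing notes, with no version. They are linear and have a mean of 250.0 on every array after trimming 2% at each end, unlike GCRMA output on its usual log2 scale, so how they were summarised is unknown.

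Signals were log2-transformed with no pseudocount. Of 45101 probe sets, 34958 have 1 gene symbol in the platform annotation, 932 several and 9211 none. Only probe sets above a log2 of 4 on 7 or more arrays entered the test. Groups were compared over 38870 probe sets with limma 3.58.1 in R 4.3.3 (two-sided, group only, Benjamini-Hochberg, threshold 0.05), after a test on simulated data. Intervals are limma's 95% intervals, unadjusted. The number of arrays limits the precision. The members and lists were chosen with earlier results of these data known. Every member is named; array values are given for members with an unadjusted p under 0.05 and 12 fixed by name, and in other lists for genes with the smallest p. Apart from brightness ranks, the split into bright and other members and the tissue check, gene levels are not compared between probe sets. Promoter windows came from RefSeq. Alternatives were other filters, scalings, priors, probe set choices, the replicate block and leaving out arrays. The labels do not say that the replicate numbers pair the arrays.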

Additional observations from a re-analysis of the deposited data

Results flagged for a closer look

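Of 62 groups of arrays, 4 had an array far from the others of its group, where chance gives about 1 in 20. Control heart 5 was highest in Tnnc1, at 51350 units against 27838 in the next, and in Myl2, at 71998 against 35948. Heterozygous heart 6 was lowest in Ttn, at 11777 units against 18539. Heterozygous heart 5 was lowest in Hspb7, at 4590 units against 10003.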

How the results depend on the processing

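No member passed under any of 27 alternatives, leaving out single arrays included. Of the member probe sets, 1 passed with signals floored at a log2 of 6 and 1 with a trended and robust prior, in both cases the fourth brightest of Smyd1. Of the other sarcomere genes, 2 passed with the filter at a log2 of 6 (Fhl1, Pdlim3), 4 with the floor (Capn3, Fhl1, Myh7, Pdlim3), 2 with the trended and robust prior (Fhl1, Pdlim3) and 0 with the replicate block. Over all probe sets, 98 passed as reported, 192 with the filter at a log2 of 6, 461 with the floor, 312 with the trended and robust prior, 65 with median centring, 65 with quantile normalization, and 17 to 150 without single arrays. The replicate block left 1 call, against 73 for the same arrays without it. Same-numbered arrays did not deviate together over the tested probe sets (correlations of -0.06 to 0.06), and the labels do not state a pairing. Such correlations can miss a shared factor that acts on few genes, so a pairing is not excluded. Centring on bright probe sets and leaving out control 5 and heterozygous 6 together were chosen after seeing the data.

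The sign was the same in all 27 alternatives for Smyd1, Myom1, Trim54 and Myoz1 (below 0) and for Myot and Myom2 (above 0), 6 of 31. Elsewhere it changed, with the cause not tested. The log2 differences that changed sign were, with median centring, Tpm1 0.18, Mybpc3 0.076, Ttn 0.20, Actn2 0.091, Cryab 0.16, Myoz2 0.081, Flnc 0.14, Myl2 0.18, Myl3 0.15, Unc45b 0.062, Nrap 0.20. With quantile normalization they were Tmod1 -0.0086, Lmod2 -0.033, and with array weights Tpm1 0.0031, Ttn 0.028, Myl2 0.011. With the replicate block they were Tnnt2 -0.0004, Tnnc1 -0.057, Tmod1 -0.014, Nrap 0.022. Centred on bright probe sets they were Tnnt2 -0.025, Tnnc1 -0.069, Nebl -0.018, Tmod1 -0.048, Lmod2 -0.046, Mypn -0.028. Without the 2 arrays they were Tpm1 0.31, Mybpc3 0.043, Ttn 0.23, Actn2 0.023, Tmod1 -0.031, Cryab 0.11, Myoz2 0.069, Myl2 0.32, Myl3 0.27, Nrap 0.054. The mean of probe sets gave Tnnt2 -0.16, Tpm1 0.27, Des -0.100, Mypn -0.059, Synpo2l -0.22, Capzb -0.28, Hspb7 0.058, Tpm2 -0.0071, and the probe set of highest SD gave Tnnt2 -0.58, Tpm1 0.93, Ldb3 -0.12, Des -0.36, Flnc 0.037, Mypn -0.16, Pdlim5 -0.50, Synpo2l -1.17, Capzb -1.30, Hspb7 0.28. Leaving out single arrays gave these ranges where the sign changed: Tnnc1 -0.073 to 0.15, Nrap -0.11 to 0.087, Tpm1 -0.12 to 0.14, Ttn -0.060 to 0.12, Myl2 -0.11 to 0.15, Cryab -0.10 to 0.034, Flnc -0.16 to 0.016, Myl3 -0.14 to 0.11, Tmod1 -0.075 to 0.077, Lmod2 -0.037 to 0.11, Tnnt2 -0.043 to 0.21, Mypn -0.0049 to 0.095, Nebl -0.024 to 0.13, Tcap -0.0098 to 0.19.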
